A study of Mus musculus with 10 samples.

Results

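The interleukins and their receptors were taken from the deposited count table as every gene whose symbol starts with Il and a digit, which gave 83 of 55401 listed genes. They comprise 37 ligands, 38 receptor chains, 6 decoy receptors or inhibitors, and 2 symbols of another kind (Il4i1, an amino acid oxidase induced by IL-4, and Il1bos, a transcript opposite Il1b). RNA was sequenced from meningeal lymphatic endothelial cells (LECs) of 3-month-old female C57BL/6 mice (C57BL/6J in the methods), which were either naive or had received sub-chronic variable stress (SCVS), an alternation of foot shock, tail suspension and restraint over 6 days. Each group held 5 biological replicates, and the cells of 3 to 4 animals were pooled in each replicate, sorted as CD45-, CD31+ and podoplanin+ cells after a digestion of the dura mater that contained the transcription inhibitor actinomycin D. The comparison addresses which transcripts of the cells that line meningeal lymphatic vessels differ after stress.

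Interleukins are secreted proteins through which leukocytes and tissue cells signal to each other, and most of them act through a receptor of at least a pair of chains. The chains are shared between cytokines: gp130, encoded by Il6st, serves IL-6, IL-11 and IL-27, the common gamma chain Il2rg serves IL-2, IL-4, IL-7, IL-9, IL-15 and IL-21, and the accessory protein Il1rap serves IL-1, IL-33 and IL-36. Receptors of the IL-1 and IL-17 families signal through adaptors to NF-kappaB, and most of the others through JAK kinases and STAT transcription factors. Lymphatic endothelium is known as a source of IL-7 and responds to IL-1 and to the type 2 cytokines IL-4 and IL-13.

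Total counts lay between 9984743 and 14094155 per replicate, so that 3 counts, used here as the limit that a count of 0 allows, correspond to 0.213 to 0.3 CPM (reads of a gene per 1000000 counted reads). The RNA was amplified before sequencing, and intervals and limits cover counting error only. Several replicates went against the label of the cells. Naive replicate 5 had 21.5 CPM of Pecam1, which encodes the sort marker CD31, against 932 to 1120 CPM in the other naive replicates and 536 to 985 CPM in the SCVS replicates. Its pan-endothelial list of 6 genes (Pecam1, Cdh5, Tek, Tie1, Kdr and Emcn) summed to 434 CPM, against 3690 to 6680 CPM elsewhere, and its neuron and glia list of 7 genes reached 3220 CPM. Naive replicate 1 had no count of the LEC markers Prox1, Pdpn and Tbx1, 2 counts of Lyve1 and 5 of Reln. It had 376 counts of Flt4, 165 of Mmrn1, 141 of Maf and 86 of Ccl21a. Single LEC markers were also near 0 elsewhere, such as Lyve1 in naive replicate 5 (1 count) and Prox1 in SCVS replicate 5 (2 counts). Other markers of the list were present there. Naive replicate 5 had 843 counts of Prox1, 351 of Pdpn and 923 of Mmrn1, but 0 of Tbx1 and 11 of Reln. SCVS replicate 5 had 971 counts of Lyve1, 1932 of Mmrn1 and 595 of Reln. SCVS replicate 5 held 4910 CPM of erythroid genes, 265 CPM of mast cell genes and 1510 CPM of dural fibroblast genes. The dural fibroblast list summed to 18.5 to 160 CPM in the other SCVS replicates and to 55.5 to 1630 CPM in naive replicates. The myeloid list of 10 genes summed to 4580 CPM in SCVS replicate 4 (Lyz2 alone 3100 CPM), against 133 to 820 CPM in the other SCVS and 17.6 to 656 CPM in naive replicates. Mast and myeloid cells carry CD45, which the sort gate was meant to exclude. Ptprc, which encodes CD45, had 27, 113 and 404 counts in SCVS replicates 1, 4 and 5. It had at most 1 count in each other replicate of either group. The summed LEC list ranged from 74.4 to 2930 CPM in naive and from 471 to 3240 CPM in SCVS replicates. The blood endothelial list of 8 genes was above it in every replicate, at 313 to 10300 CPM in naive and 5220 to 9320 CPM in SCVS replicates. The mural list of 6 genes summed to 769 to 7530 CPM in naive and 406 to 5850 CPM in SCVS replicates. Rgs5 alone had 427 to 5660 and 324 to 5810 CPM, whereas Pdgfrb had 0 to 125 and 0 to 45.8 CPM. Acta2 had 14.8 to 1530 CPM in naive and 1.59 to 84.7 CPM in SCVS replicates. Sums over lists of different genes do not give shares of cells. Fold changes without naive replicates 1 and 5, singly or together, are given below for some of the genes that still passed the filter. The same holds for SCVS replicates 4 and 5, which were left out singly but not together. In such bulk samples fewer cells of a type and less RNA per cell cannot be told apart.

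Most interleukin genes had reads in few or no replicates. Of the 83 genes, 16 had no read in any replicate, 39 had reads but did not pass the filter, which asked for over 5 counts in 3 or more replicates, and 28 (33.7%) passed it, against 26.7% of all listed genes. The 28 were 18 of the 38 receptor chains, 9 of the 37 ligands and 1 inhibitor, and the inhibitor, Il18bp, was the only one of the 6 decoys and inhibitors to pass. More than 5 counts were found for 19.4 ± 5.13 of the 83 genes in naive replicates and for 22.2 ± 4.09 in SCVS replicates (n = 5 per group, SD). The ranges of 14 to 27 and 18 to 27 overlap almost entirely. Of all listed genes, 19.6% to 23.0% had more than 5 counts in naive and 21.0% to 24.6% in SCVS replicates.

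No member differed between SCVS and naive mice past the threshold. Counts were compared by the quasi-likelihood method of edgeR, and p-values were adjusted by Benjamini and Hochberg over all 14815 tested genes. Of the 28 tested members 0 reached an adjusted p below 0.1, as was true of 0% of all tested genes, and the members' adjusted p lay between 0.964 and 1.0. At an unadjusted p under 0.05 there was 1 member, Il20rb, beside 3.1% of all tested genes (1.93% higher and 1.17% lower in SCVS). For 0 of the 28 members did the SCVS and naive replicates fail to overlap in CPM, beside 0.628% of all tested genes (0.445% higher and 0.182% lower in SCVS). DESeq2 with default settings called 1 member, again Il20rb, beside 0.769% of all tested genes, and so did the likelihood ratio test of edgeR, beside 0.256%, whereas limma with voom called 0 members. Of the 28 members, 17 had a positive and 11 a negative log2 fold change, with a median of 0.17 beside -0.03 over all tested genes, while the median standard error of a member's log2 fold change was 1.91.

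**Figure D1:**
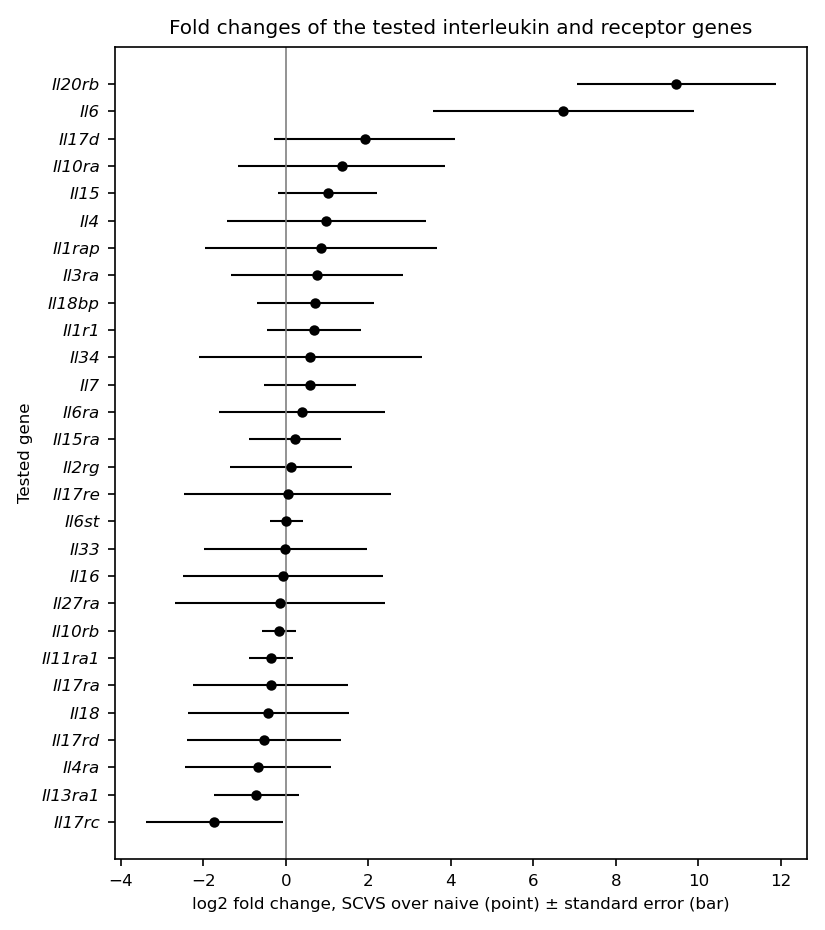
log2 fold change of SCVS over naive (horizontal axis) for each of the 28 tested genes (vertical axis), with points for edgeR's estimate and bars for its standard error. Il20rb, at 9.46, and Il6, at 6.73, lie farthest from 0, and the bars of 25 of the 28 genes cross 0.

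The spread among replicates was wide for these genes in both groups. Among tested members, 13 (46.4%) were at 0 in a naive replicate while another naive replicate had 100 or more counts, beside 34.8% of all tested genes, and 16 (57.1%) did so among the SCVS replicates, beside 32.5%. The numbers of tested members at 0 ranged from 3 in naive replicate 4 to 11 in naive replicates 1 and 5, and from 4 in SCVS replicates 2 and 5 to 10 in SCVS replicate 1. Of all 83 genes, only Il6st, Il10rb and Il11ra1 had more than 5 counts in each of the 10 replicates.

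**Figure D2:**
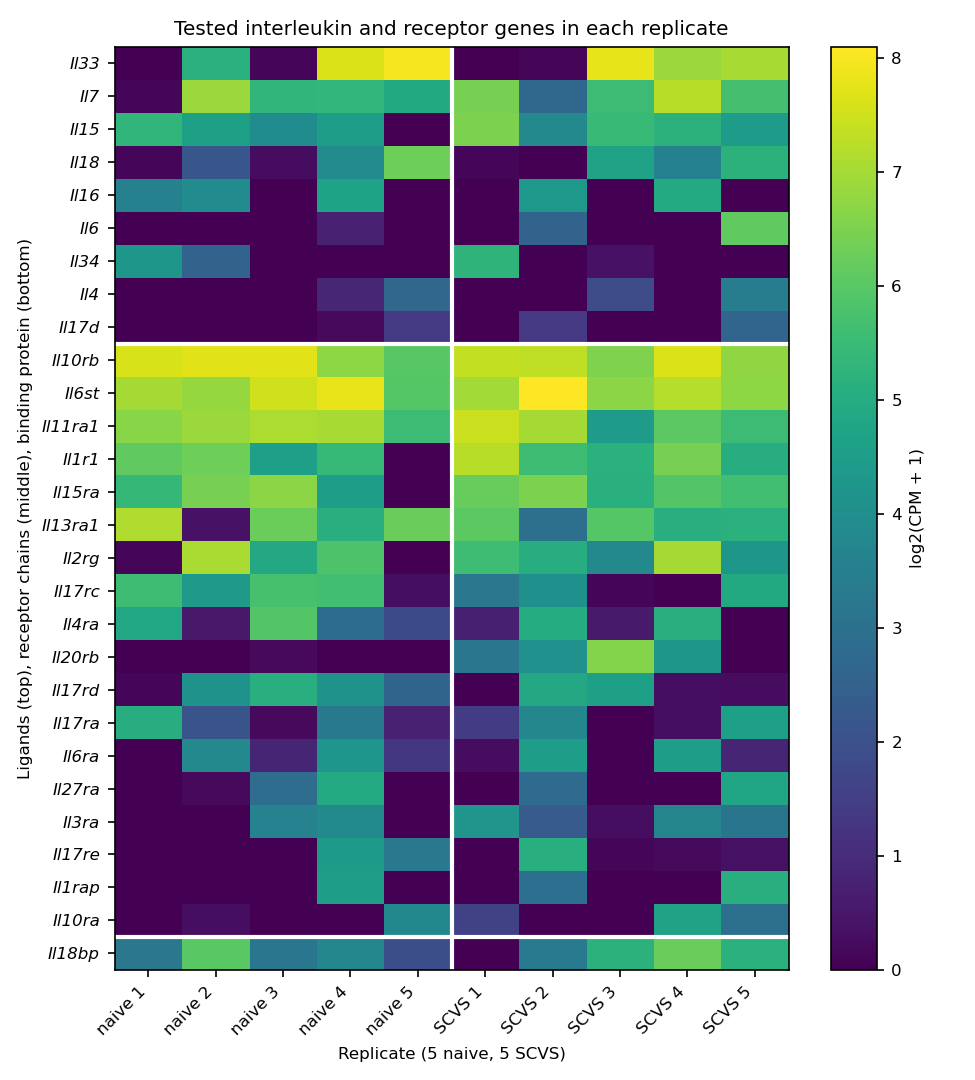
log2(CPM + 1) of the 28 tested genes (rows, by role and then by mean level) in the 5 naive and 5 SCVS replicates (columns), where dark cells are at or near 0 counts. Il6st, Il10rb and Il11ra1 are filled in all 10 columns, and Il20rb is filled in 4 SCVS columns.

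The receptor chain Il20rb had the smallest p of the family. It encodes the beta chain of the IL-20 receptors, which bind IL-19, IL-20 and IL-24 together with the Il20ra or the Il22ra1 chain. Il20rb (ENSMUSG00000044244, GRCm38.p6 chromosome 9, 100457719 to 100486473, with no overlapping gene in RefSeq) had 0, 0, 2, 0 and 0 counts in the naive replicates, in order of their number, and 115, 196, 1190, 247 and 0 counts in SCVS replicates 1 to 5. It was therefore high in 4 of 5 SCVS replicates and near 0 in all naive replicates, and SCVS replicate 5 lay inside the naive range. Its mean was 0.0286 ± 0.064 CPM in the naive and 27.9 ± 39.1 CPM in the SCVS group (n = 5 per group, SD), with 68.1% of the SCVS counts in replicate 3. Summed over replicates, the 2 naive counts and 1748 SCVS counts gave a ratio of 905.9 relative to total counts, with an exact 95% counting interval of 250.4 to 7487. This interval takes amplified reads as independent and leaves out the spread among replicates, so it is no bound on a difference between the groups. The log2 fold change was 9.46 (standard error, SE, 2.41, edgeR, unadjusted p = 0.00219, adjusted p = 0.964). Il20rb passed the filter through the SCVS replicates alone, so that its p-values partly follow from the filter. In DESeq2 the adjusted p of Il20rb was 5.259e-04, and in edgeR's likelihood ratio test it was 0.0997. Its adjusted p ranged from 5.035e-04 (DESeq2 with the Cook's filter off) to 1.0 over all alternatives. Without naive replicates 1 and 5 the log2 fold change of Il20rb was 8.90, and without SCVS replicate 3 it was 8.02, with an adjusted p (edgeR) of 1.0 in each case. Without SCVS replicate 5, the one SCVS replicate with no Il20rb read, the groups of necessity did not overlap. This was true in the same direction of 0.768% of all genes tested in that setting, and the adjusted p of Il20rb (edgeR) was 1.0.

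The partner chains and ligands of Il20rb were hardly detected. Il20ra had 67 counts in naive replicate 2, 2 in naive replicate 1 and 0 elsewhere, and Il22ra1 had 2 and 55 counts in SCVS replicates 1 and 2 and 0 elsewhere. SCVS replicate 2 was thus the only replicate with more than 5 counts of Il20rb and of a partner chain. Among the ligands, Il20 had no read, Il19 had 10 counts in all, 7 of them in naive replicate 2, and Il24 had 61 counts in naive replicate 1 and 2 in SCVS replicate 1. The summed LEC list was 1420, 1180, 3240, 3190 and 471 CPM in SCVS replicates 1 to 5, lowest in the replicate without Il20rb, but it was also 2930 CPM in naive replicate 2, where Il20rb had 0 counts. The part of these markers in the Il20rb values was not tested.

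The ligand Il6, an inflammatory cytokine and inducer of the acute phase response, came next. Reads were found in naive replicate 4 (9 counts) and in SCVS replicates 2 and 5 (61 and 691 counts) and in no other replicate. Thus 91.9% of its SCVS counts were in a single replicate, the one with the highest mast cell list, 265 CPM, and the highest erythroid list. It also had the highest dural fibroblast list among SCVS replicates, 1510 CPM. The part of those cells in the value was not tested. Its mean of 0.133 ± 0.297 CPM in the naive and 14.8 ± 30.5 CPM in the SCVS group (n = 5 per group, SD) gave a log2 fold change of 6.73 (SE 3.17, edgeR, unadjusted p = 0.0564, adjusted p = 1.0). DESeq2 gave Il6 no p at default settings, because its Cook's filter on outlying counts removed it. Without SCVS replicate 5, Il6 had too few replicates with reads to be tested.

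**Figure D3:**
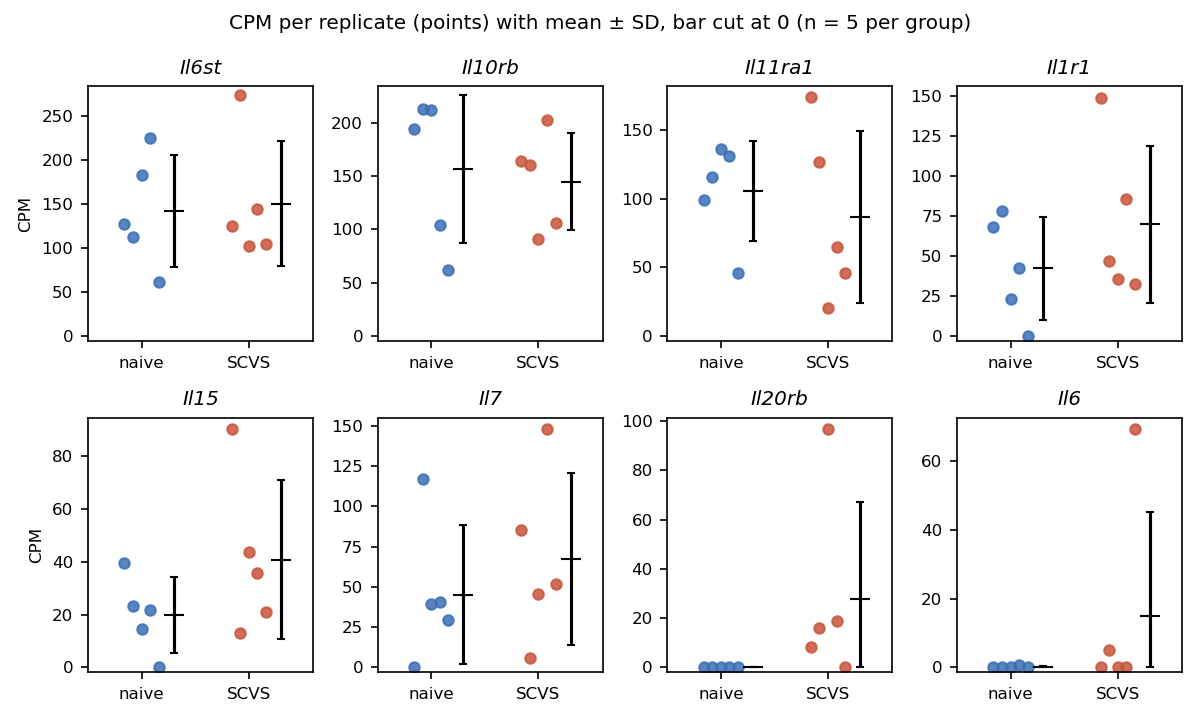
CPM of 8 genes in each replicate (points, vertical axis, a linear scale of its own in each panel) of the naive and SCVS groups, with the mean and SD (n = 5) beside them and the SD bar cut at 0. Il6st, Il10rb and Il11ra1 are above 0 in all 10 replicates, whereas the SCVS means of Il20rb, 27.9, and Il6, 14.8, are set by few replicates.

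The 3 receptor chains present in all replicates had the smallest standard errors of the 28 tested genes, and none differed between the groups beyond that error. Il6st, which encodes the signal transducer gp130, had 1325, 1441, 2560, 3045 and 820 counts in naive and 1764, 3325, 1258, 1911 and 1047 counts in SCVS replicates 1 to 5. Its mean was 141.8 ± 63.3 CPM in the naive and 149.9 ± 71.0 CPM in the SCVS group (n = 5 per group, SD), a log2 fold change of 0.01 (SE 0.40), and its sign turned under TMMwsp scaling, to -0.04. Il10rb, the second chain of the receptors of IL-10, IL-22 and the lambda interferons, had 2023, 2721, 2963, 1410 and 830 counts in naive and 2319, 1953, 1124, 2687 and 1059 counts in SCVS replicates. For both genes the groups overlapped over most of their range, and naive replicate 5 was the lowest of the naive replicates. The mean of Il10rb was 157.1 ± 69.5 CPM in the naive and 145.1 ± 45.8 CPM in the SCVS group (n = 5 per group, SD), with a log2 fold change of -0.17 (SE 0.41, edgeR, adjusted p = 1.0). Il11ra1, the specific chain of the IL-11 receptor, had 1032, 1477, 1905, 1785 and 615 counts in naive and 2462, 1548, 254, 863 and 459 counts in SCVS replicates. Its log2 fold change was -0.36 (SE 0.54, edgeR, adjusted p = 1.0), and 3 SCVS replicates lay below the naive replicates 1 to 4. Il11ra1 overlaps Ccl27a in RefSeq and shares sequence with Il11ra2, which had at most 3 counts in any replicate, so that reads of the family may have been assigned unevenly. Per kilobase of annotated exon, the mean level over all replicates was highest for Il10rb, at 39.7 CPM per kb, followed by Il33 at 33.1, Il6st at 28.0, Il18 at 24.0 and Il11ra1 at 21.5 CPM per kb, but the SDs of Il33 and Il18 exceeded their means in each group, so that their place in this order is not fixed.

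For the IL-1 family, the signalling receptor was present and its classical ligands were not. Neither Il1a nor Il1b, the inflammatory ligands, had a read in any replicate, which allows at most 0.213 to 0.3 CPM in each. The receptor Il1r1 had 708, 996, 319, 575 and 0 counts in naive and 2094, 566, 436, 1131 and 322 counts in SCVS replicates, present in all but naive replicate 5. Its mean was 42.2 ± 32.0 CPM in the naive and 69.6 ± 49.0 CPM in the SCVS group (n = 5 per group, SD), with a log2 fold change of 0.68 (SE 1.13) that was 0.36 without naive replicate 5. The accessory chain Il1rap, which the receptor needs to signal, had 302 counts in naive replicate 4, 83 and 328 in SCVS replicates 2 and 5, and 0 in the other 7 replicates, too few to be tested without SCVS replicate 5. Both chains thus exceeded 5 counts in 3 replicates, naive 4 and SCVS 2 and 5. The inhibitors were low as well, since the decoy Il1r2 had 2 and 7 counts in naive replicates 2 and 4 only, and the antagonist Il1rn had 6 counts in SCVS replicate 4 only.

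The alarmins Il33 and Il18, IL-1 family ligands held in the cells until release or processing, were on or off together. Il33 had 0, 445, 1, 2682 and 3342 counts in naive and 0, 1, 2714, 1531 and 1316 counts in SCVS replicates. In the same order Il18 had 1, 45, 3, 192 and 1051 counts in naive and 1, 0, 303, 142 and 362 counts in SCVS replicates. The 6 replicates with at least 445 counts of Il33 were the 6 with at least 45 counts of Il18, 3 in each group, and the other 4 had at most 1 and at most 3 counts. The means were 96.7 ± 119 CPM in the naive and 93.6 ± 94.2 CPM in the SCVS group for Il33, and 19.4 ± 33.7 CPM and 14.3 ± 15.9 CPM for Il18 (n = 5 per group, SD), all within the spread of the replicates. The log2 fold change of Il18, -0.42 (SE 1.95), became 1.74 without naive replicate 5, and that of Il33, -0.01 (SE 1.98), became 0.76. Naive replicate 5, where Il33 and Il18 were highest, was the replicate with the lowest pan-endothelial list, 434 CPM, and the highest neuron and glia list, 3220 CPM. That list was 897 CPM in naive replicate 4 and 1570 and 1870 CPM in SCVS replicates 4 and 5, but 165 and 99.7 CPM in naive replicate 2 and SCVS replicate 3, which also held Il33, and the part of these cells was not tested. Il33 overlaps Gm41832, and Il18 overlaps Bco2 and Tex12, in RefSeq.

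**Figure D4:**
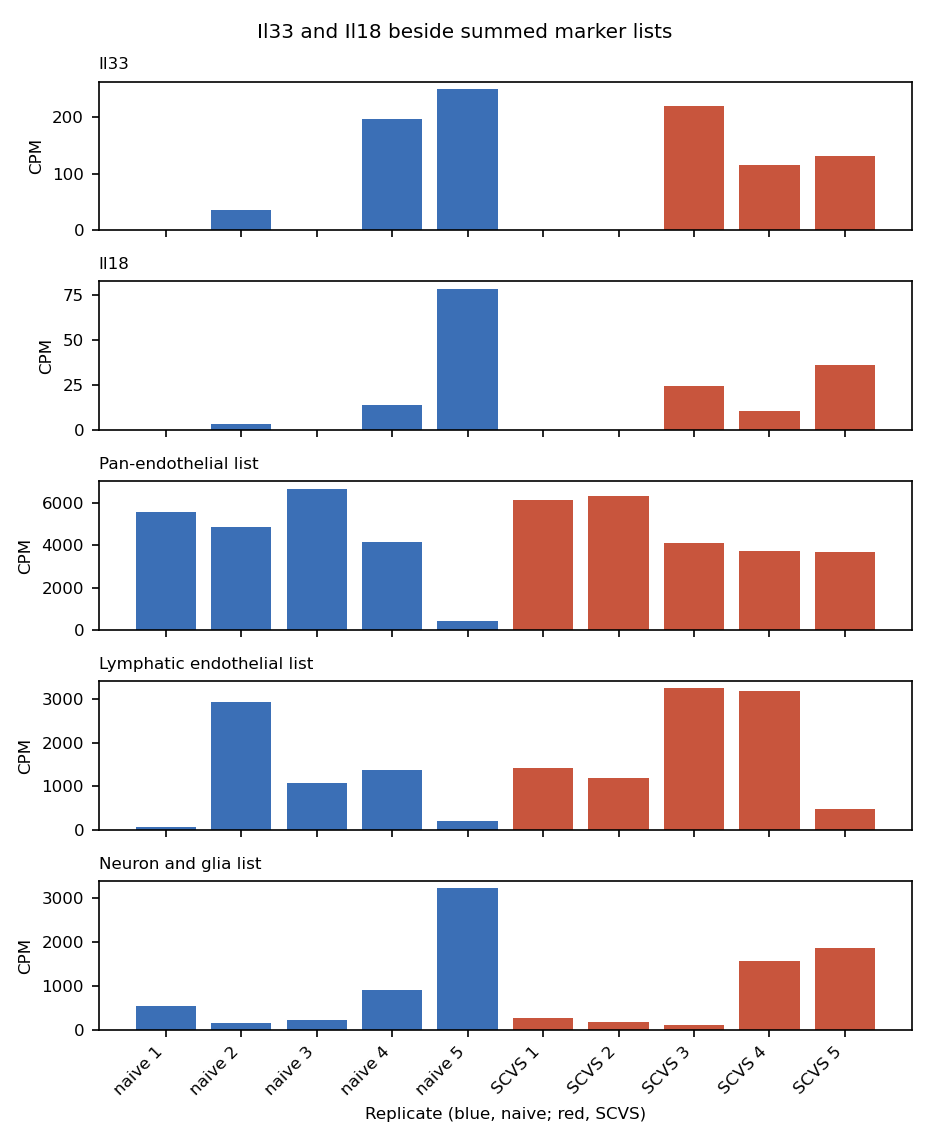
CPM of Il33 and Il18 and summed CPM of 3 marker lists (vertical axes) in each naive (blue) and SCVS (red) replicate. The same 6 replicates carry Il33 and Il18, among them naive replicate 5, whose pan-endothelial list is 434 CPM.

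Their receptors were each found in few replicates. Il1rl1, the receptor of IL-33, had 74 counts, all in SCVS replicate 3, and Il18r1 had 300 counts in SCVS replicate 5 and 4 in SCVS replicate 1, while its partner Il18rap had no read. Il18bp, a secreted protein that binds and blocks IL-18, was by contrast found in 9 replicates, with 87, 826, 112, 168 and 38 counts in naive and 0, 115, 441, 988 and 348 counts in SCVS replicates. Its log2 fold change of 0.71 (SE 1.41) was smaller than its error, and was -0.76 in limma with voom and quality weights. It was 0.08 without SCVS replicate 4, which had the highest Il18bp count and the myeloid list of 4580 CPM. Naive replicate 2 had the next highest count, 826, with a myeloid list of 152 CPM. The LEC list was 3190 CPM in SCVS replicate 4 and 2930 CPM in naive replicate 2, and the part of either list was not tested.

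The 250 bases before the RefSeq start site are printed for Il6st, for Il20rb, and for Il18 and Il33, which appeared together, with each CpG dinucleotide in capitals. They were chosen as examples and do not stand for genes detected as widely or as rarely.
Il6st: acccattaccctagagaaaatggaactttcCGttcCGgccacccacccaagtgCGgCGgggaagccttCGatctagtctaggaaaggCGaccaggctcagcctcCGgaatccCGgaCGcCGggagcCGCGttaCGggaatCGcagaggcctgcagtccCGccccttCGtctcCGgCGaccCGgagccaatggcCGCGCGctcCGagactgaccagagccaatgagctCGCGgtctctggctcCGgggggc
Il20rb: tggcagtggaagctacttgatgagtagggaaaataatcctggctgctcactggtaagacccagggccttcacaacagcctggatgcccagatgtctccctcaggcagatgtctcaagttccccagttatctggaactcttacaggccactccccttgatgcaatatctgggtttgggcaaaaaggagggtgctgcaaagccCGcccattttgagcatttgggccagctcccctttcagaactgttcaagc
Il18: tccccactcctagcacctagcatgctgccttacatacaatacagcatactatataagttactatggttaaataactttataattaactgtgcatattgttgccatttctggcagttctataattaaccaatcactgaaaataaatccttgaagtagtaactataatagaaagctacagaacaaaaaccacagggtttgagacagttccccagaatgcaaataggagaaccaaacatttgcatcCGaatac
Il33, upstream start: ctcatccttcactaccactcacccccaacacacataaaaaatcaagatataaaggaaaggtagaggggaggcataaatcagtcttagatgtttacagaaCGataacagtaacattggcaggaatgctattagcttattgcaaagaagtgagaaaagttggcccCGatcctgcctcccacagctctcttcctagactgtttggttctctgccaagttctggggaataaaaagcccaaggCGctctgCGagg
Il33, downstream start: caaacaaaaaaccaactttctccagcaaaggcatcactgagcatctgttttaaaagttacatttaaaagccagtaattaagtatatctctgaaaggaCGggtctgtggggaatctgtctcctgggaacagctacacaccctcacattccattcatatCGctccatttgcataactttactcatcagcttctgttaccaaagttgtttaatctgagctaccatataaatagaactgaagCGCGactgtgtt

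In GRCm38.p6 these windows lie at chr13:112463820-112464069 on the plus strand (Il6st), chr9:100486474-100486723 on the minus strand (Il20rb), chr9:50554450-50554699 on the plus strand (Il18), and chr19:29924863-29925112 and chr19:29945540-29945789 on the plus strand (Il33). The Il6st window holds 26 CpG dinucleotides, an observed-to-expected ratio of 0.959, whereas those of Il20rb and Il18 hold 1 each (ratios 0.0584 and 0.132) and each Il33 window holds 4 (0.314 and 0.421). The motif TATAAA, searched on both strands, was found in the Il18 window and both Il33 windows but not in those of Il6st or Il20rb. It was in 12.4% of all RefSeq windows of this length and in 13 of the 81 windows of members. The STAT motif TTCNNNGAA, searched likewise, was in none of the 5. It was in 7.02% of all windows and in 9 of the 81 windows of members. RefSeq windows were at hand for 66 of the 83 genes, and the ratio, averaged over a gene's start sites, was above 0.6 for 3 of 8 genes detected (over 5 counts) in 8 or more replicates, for 4 of 13 other tested genes and for 4 of 45 genes that were not tested, beside 33.6% of all genes. The share above 0.6 was lowest, 8.89%, among the genes not tested. The ratio did not match detection in every gene, since Il11ra1, found in all replicates, had 0.197 and 0.102 at its 2 starts, and Il1rap, found in 3, had 0.87. These matches are descriptions and say nothing of which factors were bound.

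Among the cytokines of the common gamma chain, the ligands Il7 and Il15 had more than 5 counts in 9 replicates each. The chains Il15ra and Il2rg did so in 9 and 8 replicates, but Il7r and Il2rb in 1 each. Il7, a survival factor for lymphocytes, had 1, 1493, 554, 550 and 391 counts in naive and 1207, 69, 562, 1957 and 518 counts in SCVS replicates. It was near 0 in naive replicate 1, the replicate with the lowest LEC list, 74.4 CPM, whose part in this value was not tested. The mean of Il7 was 45.3 ± 43.3 CPM in the naive and 67.3 ± 53.2 CPM in the SCVS group (n = 5 per group, SD), a log2 fold change of 0.59 (SE 1.12, edgeR, adjusted p = 1.0). It was 0.27 without naive replicate 1 and 0.06 without SCVS replicate 4, where Il7, at 147.9 CPM, and the myeloid list were highest. Naive replicate 2 came next, with 116.9 CPM of Il7 and a myeloid list of 152 CPM. The LEC list was 3190 CPM in SCVS replicate 4 and 2930 CPM in naive replicate 2, and the part of either list was not tested. The IL-7 receptor chain Il7r had 1 and 69 counts in SCVS replicates 2 and 5 and 0 elsewhere. Il15, a survival factor for natural killer and memory T cells, had 411, 299, 201, 297 and 0 counts in naive and 1271, 159, 541, 475 and 211 counts in SCVS replicates. Its carrier chain Il15ra, which presents the cytokine to neighbouring cells, had 430, 1096, 1436, 299 and 0 counts in naive and 1029, 1092, 421, 795 and 486 counts in SCVS replicates. Both were present in every replicate but naive replicate 5, so that its absence lowers the naive means. The log2 fold change of Il15 was 1.01 (SE 1.21) with all replicates and 0.69 without naive replicate 5, and that of Il15ra was 0.21 (SE 1.11) and -0.11. Il2rg had 1, 1720, 397, 765 and 0 counts in naive and 662, 388, 161, 1687 and 183 counts in SCVS replicates, near 0 in naive replicates 1 and 5. Its log2 fold change of 0.12 (SE 1.49) was -0.61 without naive replicates 1 and 5. It was -0.71 without SCVS replicate 4, which had the most Il2rg in SCVS and 4580 CPM of myeloid genes, whose part was not tested. Naive replicate 2 had more Il2rg, 134.7 against 127.5 CPM, with a myeloid list of 152 CPM. The signalling chain Il2rb had 29 counts in naive replicate 3 and 1 in SCVS replicate 3.

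Chains for the type 2 cytokines IL-4 and IL-13 were present in most replicates. Il13ra1, which pairs with Il4ra, had 1466, 4, 1079, 440 and 990 counts in naive and 928, 84, 755, 441 and 352 counts in SCVS replicates, lowest in replicate 2 of each group. Its mean was 65.0 ± 52.9 CPM in the naive and 40.5 ± 23.9 CPM in the SCVS group (n = 5 per group, SD), and its log2 fold change of -0.72 (SE 1.03) turned to 0.71 in limma with voom and to 0.13 without naive replicates 1 and 5. Il4ra exceeded 5 counts in 9 replicates, with 6 to 832 counts in naive and 0 to 434 counts in SCVS replicates (log2 fold change -0.69, SE 1.77). The ligand Il4 had 11 and 72 counts in naive replicates 4 and 5 and 32 and 97 counts in SCVS replicates 3 and 5, and Il13 had 35 counts in SCVS replicate 1 only.

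Of the IL-17 receptor chains, 4 were tested and none differed. Il17rc, which forms the receptor of IL-17A with Il17ra, had the largest negative log2 fold change among the members, -1.74 (SE 1.66, edgeR, unadjusted p = 0.316, adjusted p = 1.0). It had 487, 256, 740, 673 and 3 counts in naive and 117, 190, 1, 0 and 293 counts in SCVS replicates, so that the naive replicates apart from replicate 5 lay between 256 and 740 counts and overlapped the SCVS range through its highest value. The log2 fold change of Il17rc was -2.05 without naive replicate 5 and -2.64 without SCVS replicate 5. Il17ra had 2 to 331 counts in naive and 0 to 226 in SCVS replicates (log2 fold change -0.37, SE 1.88, and 1.20 without naive replicate 1). Il17rd, an inhibitory member of the family, had 1 to 457 and 0 to 347 counts, and Il17re, the IL-17C chain, had 276 and 112 counts in naive replicates 4 and 5, 401 in SCVS replicate 2 and at most 3 elsewhere. Among the ligands, Il17d, which is expressed outside the immune system, had 2 and 21 counts in naive replicates 4 and 5 and 19 and 53 counts in SCVS replicates 2 and 5 (log2 fold change 1.91, SE 2.19, not tested without either replicate 5, when it fails the filter), while Il17a and Il17f had 3 counts each in SCVS replicate 4 only and Il17c had none.

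The remaining tested genes were each carried by a part of the replicates, with no group difference beyond their errors. Il34, a ligand of the macrophage receptor CSF1R, had 192 and 63 counts in naive replicates 1 and 2, 526 in SCVS replicate 1 and at most 4 elsewhere, so that without naive replicate 1 it fails the filter. Il16, a chemoattractant for CD4+ cells, had 113, 179 and 342 counts in naive replicates 1, 2 and 4, 233 and 396 in SCVS replicates 2 and 4, and 0 in the other 5 replicates. Il6ra, the IL-6 binding chain, had 0, 165, 11, 247 and 20 counts in naive and 3, 266, 0, 296 and 8 counts in SCVS replicates, high in replicates 2 and 4 of each group. Il27ra, the IL-27 chain, exceeded 5 counts in 4 replicates, Il10ra, the ligand-binding IL-10 chain, in 4, and Il3ra, the IL-3 chain, in 6. Their log2 fold changes were -0.13 (SE 2.54) for Il27ra, 1.35 (SE 2.52) for Il10ra and 0.76 (SE 2.08) for Il3ra. That of Il10ra was 6.63 without naive replicate 5, its only naive replicate over 5 counts. It was -0.23 without SCVS replicate 4, which had 322 counts, beside 28 and 70 in SCVS replicates 1 and 5, and the highest myeloid list.

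Of the 55 members that did not pass the filter, 31 had at most 5 counts in each replicate, and 6 had at least 100 counts in a replicate. Besides Il18r1 these were Il25, with 171 counts in SCVS replicate 3, Il4i1, with 180 in SCVS replicate 2, Il21r, with 106 in SCVS replicate 2, and Il1rapl1 and Il1rl2, with 220 and 188 in naive replicate 2. Each of the 6 had its reads almost wholly in a single replicate.

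Receptors were compared as pairs of chains, since a chain alone does not signal. Of 25 pairs examined, 7 had no replicate with more than 5 counts of both chains, 13 had 1 to 4 such replicates and 5 had at least 5. The 5 were the receptors of IL-11 (Il11ra1 and Il6st, in all 10 replicates), of IL-4 and IL-13 of type II (Il4ra and Il13ra1, 8 replicates), of IL-6 (Il6ra and Il6st, 7), of IL-4 of type I (Il4ra and Il2rg, 7) and of IL-17A (Il17ra and Il17rc, 6). The naive and SCVS replicates contributed almost equally to them, with 5 and 5, 4 and 4, 4 and 3, 3 and 4, and 3 and 3. The IL-12, IL-23, IL-18, IL-33, IL-36 and IL-9 receptors and the type I IL-20 receptor were the 7 without such a replicate. A pair of chains found in a pool of cells need not lie in the same cell.

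**Figure D5:**
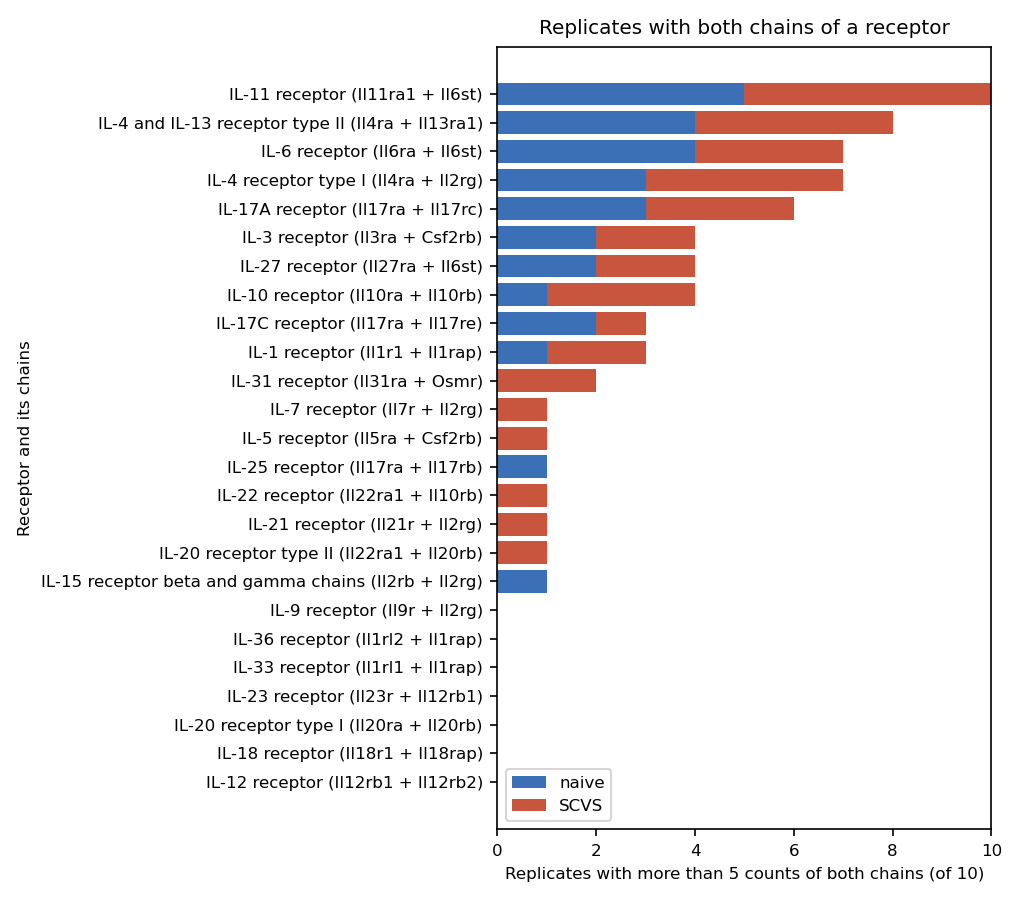
Number of replicates (horizontal axis, of 10) in which both chains of a receptor had more than 5 counts, with naive replicates in blue and SCVS replicates in red, for 25 receptors (vertical axis). The IL-11 receptor is complete in all 10 replicates and the bottom 7 receptors in none.

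No shared signalling gene differed past the threshold. Of 55 genes that transmit, restrain or process interleukin signals or share their receptor chains, 48 were tested, 0 reached an adjusted p (edgeR) below 0.1, and 32 had a positive and 16 a negative log2 fold change, with a median of 0.25 beside -0.03 over all tested genes. More than 5 counts in all 10 replicates were found for 16 of the 55, among them the kinase Jak1, the transcription factors Stat2, Stat3, Stat5b and Stat6, the gp130 partners Lifr and Osmr and the inhibitors Socs2 and Socs5. Jak1 had 174.3 ± 66.0 CPM in the naive and 184.6 ± 48.9 CPM in the SCVS group, and Stat3 had 143.2 ± 65.3 and 180.4 ± 28.3 CPM (n = 5 per group, SD), differences within the spread. The 1 gene of the list with an unadjusted p under 0.05 was Clcf1, a gp130 cytokine, with 4, 9, 7, 205 and 0 counts in naive replicates and 1 count in the SCVS replicates together (log2 fold change -6.85, SE 2.25, edgeR, adjusted p = 0.964). Clcf1 passed the filter through the naive replicates alone, which partly fixes its p. DESeq2 gave it none at default settings, and with a replicate block its unadjusted p (edgeR) was 0.0764. Socs3, the feedback inhibitor of gp130 signalling, had 0, 149, 12, 141 and 39 counts in naive and 0, 27, 0, 0 and 1 counts in SCVS replicates (log2 fold change -3.61, SE 2.24, edgeR, unadjusted p = 0.135, adjusted p = 1.0), so that 3 naive replicates lay above the SCVS range. Socs5, the inhibitor with the smallest p, had 21.4 ± 12.8 CPM in the naive and 75.1 ± 60.3 CPM in the SCVS group (n = 5 per group, SD), a log2 fold change of 1.81 (SE 0.83, edgeR, unadjusted p = 0.0501, adjusted p = 1.0). Within the inhibitors, 10 of 13 had a positive log2 fold change, with a median of 0.50, and none passed the test.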

How the data were processed

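RNA of sorted meningeal LECs from 5 naive and 5 SCVS replicates was amplified with a kit for small inputs and sequenced in pairs by a sequencing company and aligned with HISAT2 2.0.1, and the authors deposited raw counts per gene, with no filter. The submitters' processing notes also name cutadapt 1.9.1, HTSeq 0.6.1 and GRCm38, whereas the paper's methods name mm9. The annotation release and the use of strand are not given in the sources used here. Only 58.8% of the gene identifiers occur in GENCODE M1 of mm9, so positions and promoters are those of RefSeq on GRCm38.p6, matched by symbol. Exon lengths (GENCODE M1, found for all 83 genes) served only for levels per kilobase. In RefSeq 13 of the 28 tested members overlap another gene, and their counts are uncertain without strand.

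The filter (over 5 counts in 3 or more replicates) and the limit of 0.1 for an adjusted p were taken from the paper. Counts were tested with edgeR 4.0.16 in R 4.3.3 (quasi-likelihood, TMM scaling, no replicate block), adjusted over all 14815 genes passing the filter. An SE is the absolute log2 fold change over the square root of F. Total counts, 9984743 to 14094155 per replicate, were the denominator of CPM. Alternatives were DESeq2 1.42.0, limma 3.58.1 with voom, other scalings, filters and edgeR tests, a replicate block and leaving out replicates. Fits without naive replicates 1 and 5, and without these and SCVS replicate 5, were chosen after seeing the data. The tests were also run on simulated counts with less spread among replicates than these data, whose common biological coefficient of variation in edgeR was 1.59. That check therefore does not cover the spread seen here. Intervals are Clopper-Pearson (SciPy 1.17.1, Python 3.11.15).

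The members, roles, receptor pairs, signalling genes and marker lists were chosen with earlier results of these data known. All tested members are named. Counts by replicate are given by rule for the 12 members highest in mean CPM, the 4 of lowest p for each direction, any called by DESeq2, and set ligand and receptor partners, and members below the filter are named from 100 counts in a replicate. Further genes with values, such as Il18, Il16, Il4, Il13, Il17re, Il17a, Il17f, Il2rb, Il20ra, Il22ra1, Il19, Il24 and Il11ra2, and Clcf1, Socs3, Socs5, Jak1 and Stat3 of the signalling list, were picked after their values were seen.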

Additional observations from a re-analysis of the deposited data

Results flagged for a closer look

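In 8 of the 36 groups of 5 replicates examined on the log2(CPM + 1) scale, a single replicate stood farther from the others than Dixon's 95% limit of 0.71 of the range allows, where chance flags about 1 in 20 groups of normally distributed values. Counts with many zeros exceed the limit more often: among all tested genes 17.4% of groups did, beside 22.2% here, and where 4 replicates are at 0, as for Il20rb, Il6 and Il1rap, any read exceeds it. Naive replicate 5 was the low value for Il1r1 (0 CPM, others 22.8 to 78.0), Il15 (0 CPM, others 14.4 to 39.4) and Il17rc (0.225 CPM, others 20.0 to 53.0), and the high value for Il17d (1.58 CPM, others 0 to 0.147). Naive replicate 4 was the only naive replicate with Il1rap, at 22.3 CPM, and with Il6, at 0.663 CPM, and naive replicate 3 the only one with Il20rb, at 0.143 CPM, which is 2 counts. SCVS replicate 1 was the high value for Il34, at 37.3 CPM, with 0 to 0.325 CPM in the other SCVS replicates. Naive replicate 5 also had the lowest pan-endothelial list, 434 CPM, and its part in these values was not tested.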

How the results depend on the processing

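The number of genes called, 0 in edgeR's quasi-likelihood test, was 114 in DESeq2, 123 without its Cook's filter, 38 in edgeR's likelihood ratio test and 3 in limma with voom, and 0 under all other settings run. Of the members, 1 was called in DESeq2 with and without that filter and in the likelihood ratio test, and 0 otherwise. At an unadjusted p under 0.05, edgeR's quasi-likelihood test gave 1 of 28 members, beside 460 of 14815 genes. With no filter it gave 14 of 67 members, beside 4941 of 29449 genes. It gave 0 of 19 with filterByExpr, beside 142 of 11599 genes. Asking for more than 5 counts in at least 5 replicates gave 0 of 19, beside 168 of 11991. Both filters remove Il20rb. DESeq2 without Cook's filter gave 2 of 28 members, beside 712 of 14815 genes. With single replicates left out, edgeR gave 1 to 2 members, beside 379 to 601 genes. The second was Il10ra without naive replicate 5 and Il6 without SCVS replicate 1, 3 or 4. Without naive replicate 5, Il10ra passed the filter through SCVS replicates alone, which partly fixes its p. SCVS replicates 1, 3 and 4 had 0 Il6 counts, so leaving any out raises the SCVS mean. With single replicates left out, the number of members whose groups do not overlap was 0 to 1. The 1 was Il20rb without SCVS replicate 5, its only SCVS replicate at 0. Of all genes tested in that setting, 0.768% lay higher without overlap. Counting a gene from 1 read gave 26.8 members in naive and 30.4 in SCVS replicates. With the replicate block, 0 members were called and 1 of 28 had an unadjusted p (edgeR) under 0.05, beside 266 of 14815 genes. Same-numbered replicates correlated by -0.01 to 0.14 in their deviations, highest with their own number in 4 of 5 cases. Only 1 of the 5 exceeded 0.1, the labels name no shared origin, and whether the numbers pair the samples is unresolved.

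Of 657 fold changes over all alternatives, 595 kept direction and side of the threshold, 3, all of Il20rb (9.74 in both DESeq2 fits, 9.46 in the likelihood ratio test), passed it, and 59 over 17 genes turned sign, the cause of which was not tested. In limma with voom these were Il13ra1 (0.71), Il18bp (-0.76), Il34 (-1.44) and Il6ra (-0.38), under the replicate block Il13ra1 (0.036), Il17re (-0.92) and Il6ra (-0.14), under TMMwsp Il17re (-0.019), Il33 (0.029) and Il6st (-0.038), and Il17re under RLE (-0.0066) and in both DESeq2 fits (-0.0067). Without naive replicates 1 and 5 the log2 fold change turned for Il13ra1 (0.13), Il15ra (-0.25), Il17ra (0.88), Il18 (1.34), Il2rg (-0.61), Il33 (0.35), Il6ra (-0.27), Il6st (-0.26). With single replicates left out, or naive 1 and 5 with SCVS 5, the ranges of genes that turned were Il10ra (-0.23 to 6.63), Il13ra1 (-1.04 to 0.17), Il15ra (-0.19 to 0.66), Il16 (-1.25 to 0.59), Il17ra (-1.51 to 1.20), Il17rd (-1.24 to 0.056), Il17re (-0.28 to 0.40), Il18 (-1.12 to 1.74), Il27ra (-3.11 to 1.93), Il2rg (-0.71 to 1.16), Il33 (-0.61 to 0.76), Il4 (-0.91 to 3.60), Il4ra (-1.48 to 0.35), Il6ra (-0.38 to 1.19), Il6st (-0.25 to 0.21).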
